A study of Mus musculus with 83 samples.

Results

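Kcnc1, Kcnc2 and Kcnc4 encode pore-forming subunits of the Kv3 family of voltage-gated potassium channels, and Kcng4 encodes an electrically silent potassium channel subunit. These 4 genes were taken by symbol from the 48795 genes of a raw count table and are described in 4 neuron types of the mouse frontal cortex at 2 ages. All libraries came from male C57BL/6 mice that were old (22 months) or young (2 months). Fresh frozen tissue was cut into 14 µm sections and stained, and each RNA-seq library was made from a pool of 125 cells taken by laser. The stain picked 3 kinds of interneuron, by Pvalb (PV), Sst (SST) and Vip (VIP), and pyramidal cells by Slc17a7 (PYC). There were 12 old and 8 young PV pools, and 12 old and 9 young pools of each of SST, VIP and PYC neurons, for 83 libraries in all. The series lists 12 old and 9 young mice, but which mouse gave which pool is not in the labels, and pool numbers below are names only.

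Kv3 channels open at strongly depolarised voltages and close quickly on repolarisation, so that the action potential ends early and sodium channels can recover for the next one. They are known as a hallmark of fast-spiking interneurons of the cortex, most of which hold parvalbumin. Kcnc1 and Kcnc2 encode subunits of sustained, delayed-rectifier current, whereas the product of Kcnc4 can give a current that inactivates. The Kcng4 protein makes no current of its own and joins Kv2 subunits in mixed channels with altered gating.

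The relation among the genes is shown by the coding sequence around the selectivity filter, the stretch of the pore loop that lets potassium pass. Each window below was read from a GENCODE M21 transcript (GRCm38), occurs once in its coding sequence and lies within 1 exon. The 18 bases in capitals are the codons of the filter.
Kcnc1: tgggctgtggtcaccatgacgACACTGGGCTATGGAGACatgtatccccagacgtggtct
Kcnc2: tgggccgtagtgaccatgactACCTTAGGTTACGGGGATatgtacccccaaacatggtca
Kcnc4: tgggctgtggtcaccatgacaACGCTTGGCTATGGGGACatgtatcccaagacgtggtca
Kcng4: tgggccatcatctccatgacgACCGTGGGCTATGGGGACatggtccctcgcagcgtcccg
The windows are at chr7:46427952-46428011 (plus strand, exon 2 of Kcnc1), chr10:112456208-112456267 (plus strand, exon 3 of Kcnc2), chr3:107447775-107447834 (minus strand, exon 2 of Kcnc4) and chr8:119625886-119625945 (minus strand, exon 3 of Kcng4). Of the 60 bases in the Kcnc1 window, 54 were identical in Kcnc4, 45 in Kcnc2 and 39 in Kcng4. Over the aligned coding sequence, identity to Kcnc1 was 74.9% for Kcnc4, 74.4% for Kcnc2 and 65.8% for Kcng4. The longest run of identical bases was 29 between Kcnc1 and Kcnc2 and between Kcnc1 and Kcnc4, and it was at most 21 between any other pair of the 4 genes. Reads that fall within such a run could belong to either gene, and their handling is unknown here. No member overlaps another annotated gene.

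Library totals ran from 1456843 to 27166041 counts with a median of 6988510, and levels are in CPM, the count of a gene scaled to a common library total. The mitochondrial share was 0.215% to 2.51% in 6 libraries and 8.31% to 17.0% in the remaining 77. These were young VIP pools 1 and 3, young PYC pool 2, young SST pool 6, old PYC pool 10 and old VIP pool 11. The sum of 5 PV markers was 697 to 1498 CPM in PV pools and at most 182 CPM in any other pool. Slc17a7, which loads glutamate into vesicles of excitatory neurons, was found in interneuron pools too: it averaged 257 CPM in PV, 348 CPM in SST, 471 CPM in VIP and 822 CPM in PYC pools. Pvalb itself averaged 76.5 CPM in PV pools, and Syt2, a synaptotagmin of their fast-releasing terminals, averaged 938 CPM.

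Kcnc1 (chr7:46396497-46438704, plus strand), which encodes Kv3.1, was higher in PV pools than in any other pool. Its level ran from 945 CPM, with a median of 1118 CPM, to 1305 CPM in old PV pools and from 957 CPM, with a median of 1096 CPM, to 1356 CPM in young PV pools. Across the 63 pools of the other types the lowest, median and highest levels were 69.7, 325 and 810 CPM. The lowest PV pool therefore stood above the highest pool of any other type, which was young VIP pool 3, one of the 6 with few mitochondrial counts. Only 9 of 15549 genes tested had every PV library above every other, a share of 0.0579%. Old and young SST pools averaged 419 ± 99.9 CPM (SD, n = 12) and 438 ± 117 CPM (SD, n = 9), old and young VIP pools 348 ± 66.1 CPM (SD, n = 12) and 492.9 ± 161 CPM (SD, n = 9), and old and young PYC pools 138 ± 38.5 CPM (SD, n = 12) and 156 ± 54.3 CPM (SD, n = 9). In the fit of all 8 groups, PV pools exceeded the mean of the other types by 1.99 ± 0.09 on the log2 scale (SE), or 3.98-fold (edgeR's quasi-likelihood test with Benjamini-Hochberg adjustment, adjusted p = 2.14e-41). Among the 15549 genes this was rank 2 by p. In pooled cells, fewer cells of a type and less RNA per cell cannot be told apart.

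Kcnc2 (chr10:112271121-112467024, plus strand), which encodes Kv3.2, was also highest in PV pools but stayed closer to PV level in SST pools. It ran from 374 CPM, with a median of 594 CPM, to 847 CPM in old PV pools and from 409 CPM, with a median of 602 CPM, to 745 CPM in young PV pools. In old SST pools the lowest, median and highest levels were 166, 366 and 451 CPM, and in young SST pools 210.2, 324 and 376 CPM. Thus PV and SST pools overlapped, between 374 and 451 CPM. VIP pools ran from 47.4 to 322 CPM and PYC pools from 9.83 to 110.3 CPM, so every PV pool stood above every VIP and PYC pool. Such a gap was found for 0.277% of genes between PV and VIP pools and 0.534% between PV and PYC pools. The 2 highest of 12 old VIP pools, at 322 and 223 CPM, were pools 11 and 9, which also held 332 and 439 CPM of Sst. The part of SST cells in these values was not tested. PV pools exceeded the mean of the other types by 2.14 ± 0.13 on the log2 scale, or 4.42-fold (edgeR's quasi-likelihood test, adjusted p = 4.00e-27).

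Kcnc4 (chr3:107438303-107459552, minus strand), which encodes the fast-inactivating Kv3.4, ran the other way and was lowest in PV pools. Old PV pools had 0 CPM at the lowest, 3.94 CPM at the median and 27.7 CPM at the highest, and young PV pools 0.795, 11.9 and 34.4 CPM. The 1 pool at 0 allows a level of up to 1.63 CPM, by the limit of 3 counts, which covers counting error only. The 63 other pools ran from 3.98 CPM, with a median of 47.6 CPM, to 109.9 CPM. The ranges overlapped between 3.98 and 34.4 CPM. PV pools were lower than the mean of the other types by 4.63-fold, a log2 difference of -2.21 ± 0.33 (SE, edgeR's quasi-likelihood test, adjusted p = 4.67e-08). Its mean in PV pools, 9.70 CPM, was 18.2% of the 53.2 CPM mean of SST pools, and its mean in PYC pools was 47.6 CPM. Slc17a7 averaged 257 CPM in PV pools, which was 31.3% of its 822 CPM mean in PYC pools. How much of the Kcnc4 signal in PV pools came from pyramidal cells was not tested. Against VIP pools alone the difference was not called, meaning an adjusted p of 0.05 or more, among young libraries (log2 -1.35, edgeR's quasi-likelihood test, adjusted p = 0.108), and it was called among old ones (-2.65, adjusted p = 3.02e-05).

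Kcng4 (chr8:119623854-119635680, minus strand), the silent subunit also named Kv6.4, was abundant in PV pools and had no count in most others. Old PV pools had 0.953 CPM at the lowest, 57.6 CPM at the median and 98.6 CPM at the highest, and young PV pools 14.0, 59.2 and 91.2 CPM. In the other types 43 of 63 pools had no count, and their limits, at 3 counts, were 0.177 to 1.39 CPM. The median was 0 CPM in SST, VIP and PYC pools, and the highest was 20.6 CPM in SST, 6.18 CPM in VIP and 32.7 CPM in PYC pools. Old PV pool 9 was far below the other PV pools, and young PYC pool 8 and young SST pool 8 were above the second lowest PV pool, so that the ranges overlapped.

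Old PV pool 9 had 7 Kcng4 counts. It was also the lowest of the PV pools in Acan, which encodes a proteoglycan of perineuronal nets, at 2.18 CPM against 47.5 to 170.5 CPM in the other 19, and in Gad1, at 1316 CPM. Its 21.4 CPM of Pvalb, 565 CPM of Syt2, 1000.5 CPM of Kcnc1 and PV marker sum of 764 CPM lay near the low end of the range of the other PV pools. The lowest values there were 14.7, 516, 945 and 697 CPM in the same order. Young PYC pool 8, with 153 Kcng4 counts, had 0.213 CPM of Pvalb, 7.90 CPM of Syt2 and a PV marker sum of 8.33 CPM. Young SST pool 8, with 69 Kcng4 counts, had 0.596 CPM of Pvalb and 22.7 CPM of Syt2. PV pools exceeded the mean of the other types by 5.75 ± 0.68 on the log2 scale, the third largest log2 fold change of 15549 genes (edgeR's quasi-likelihood test, adjusted p = 5.09e-11). Kcng4 passed the filter on low counts through its PV pools, as 43 of the 63 other pools had no count. This fold change and its rank therefore rest on values near 0 in the other types. Without young PYC pool 8 the log2 difference between PV and PYC pools was 7.56 ± 1.12, against 4.52 ± 1.01 with it. Among young libraries the difference was not called against PYC pools (4.04, edgeR's quasi-likelihood test, adjusted p = 0.123) or SST pools (4.42, adjusted p = 0.143), and among old libraries both were (5.05, adjusted p = 0.000867, and 8.80, adjusted p = 2.43e-06).

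**Figure D1:**
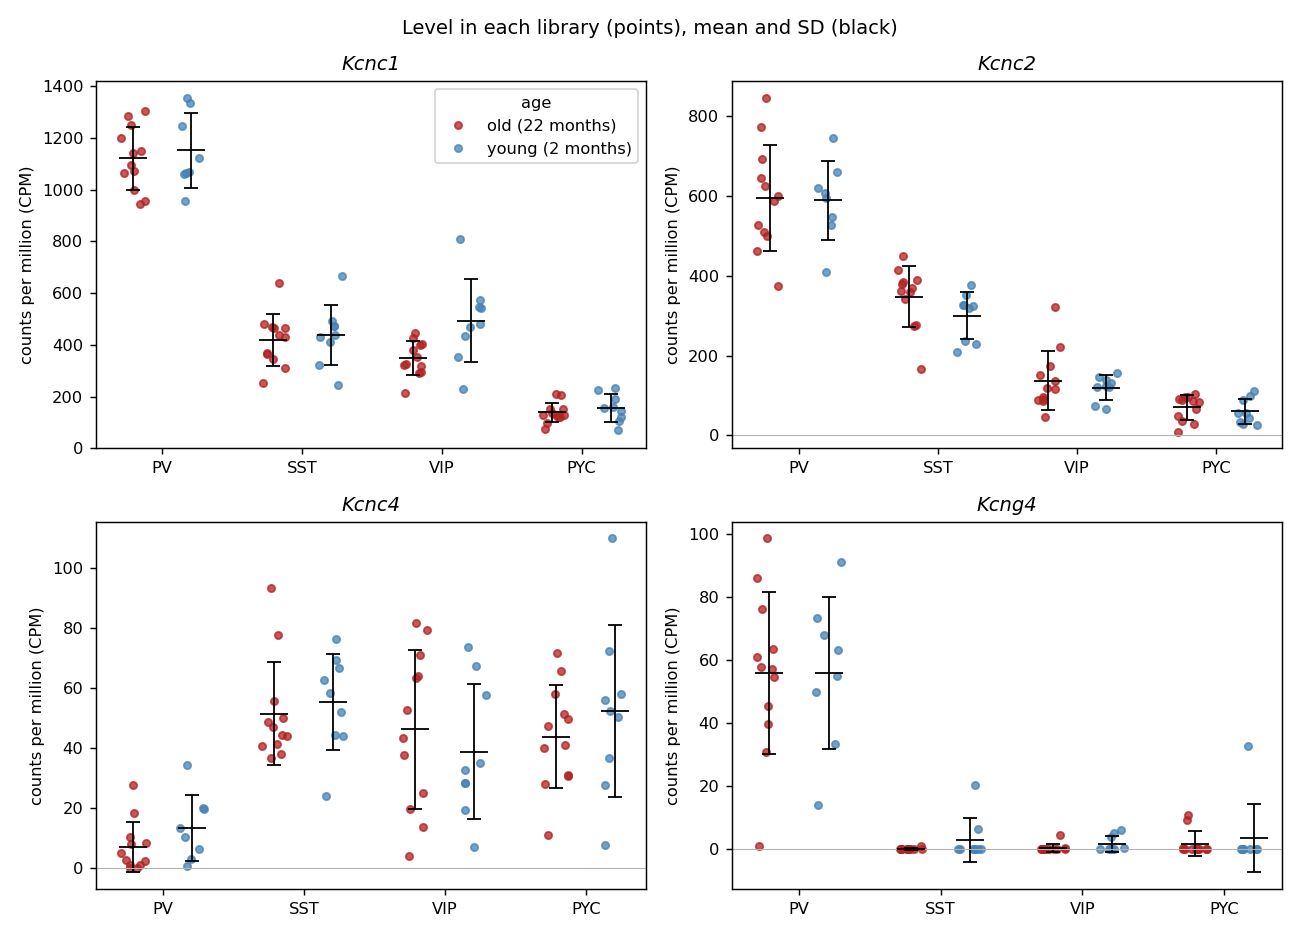
Level of Kcnc1, Kcnc2, Kcnc4 and Kcng4 in CPM (vertical axes) in every library, by neuron type (horizontal axes) and age (old in red, young in blue), with mean and SD in black. PV pools stand highest for Kcnc1, from 945 CPM upwards, and lowest for Kcnc4, and 43 of 63 other pools lie at 0 for Kcng4.

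All 4 genes passed the test between PV pools and the mean of the other types, where 16.1% of the 15549 genes did. They were chosen with earlier results of these data known, and Kcng4 passed the filter on low counts through its PV pools. That all 4 passed is therefore a description only. Kcnc1, Kcnc2 and Kcng4 were among the 7.24% higher in PV pools and Kcnc4 among the 8.84% lower. All 4 also passed in the same direction in each pair of PV with another type. These pairs share their PV libraries, so they are not separate evidence. The share of genes called was 8.91% against SST pools (3.44% higher and 5.47% lower in PV), 15.3% against VIP pools (6.53% and 8.72%) and 15.4% against PYC pools (6.75% and 8.69%).

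The pairs give the order of levels. For Kcnc1 the order was PV, then SST and VIP together, then PYC. The log2 difference of PV pools was 1.49 ± 0.12 from SST and 1.54 ± 0.12 from VIP pools, and SST and VIP pools differed by 0.05 ± 0.11 (95% interval -0.17 to 0.27), which was not called. SST and VIP pools exceeded PYC pools by 1.47 ± 0.11 and 1.42 ± 0.11, where 9.03% of genes (4.71% higher) and 7.78% (4.04% higher) were called. The lowest SST pool, at 243 CPM, stood above the highest PYC pool, at 233 CPM, as it did for 0.283% of genes. For Kcnc2 each of the 4 types differed from its neighbour: PV exceeded SST by 0.96 ± 0.17, SST exceeded VIP by 1.33 ± 0.17 and VIP exceeded PYC by 0.90 ± 0.17 on the log2 scale. Between SST and VIP pools 4.47% of genes were called, 2.31% of all being higher in SST. The adjusted p of these 3 Kcnc2 steps was 9.35e-06, 2.41e-09 and 3.25e-05 by edgeR's quasi-likelihood test.

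Outside PV pools Kcnc4 and Kcng4 gave no called difference in the fit of all libraries. For Kcnc4 the log2 differences were 0.34 ± 0.34 between SST and VIP (95% interval -0.32 to 1.001), 0.08 ± 0.34 between SST and PYC (-0.58 to 0.74) and -0.26 ± 0.34 between VIP and PYC pools (-0.92 to 0.40). The intervals leave room for a difference of up to about 1 on that scale. For Kcng4 they were wider, as at -2.08 ± 0.92 between SST and PYC pools (edgeR's quasi-likelihood test, adjusted p = 0.186). That difference was called among old libraries alone (-3.76, adjusted p = 0.0321) and without young SST pool 8 (-2.96), and it was 0.93 without young PYC pool 8. These values rest on few pools, since 11 of 12 old SST and 8 of 12 old PYC pools had no Kcng4 count. Old PYC pools 3 and 10, the latter with few mitochondrial counts, held 40 and 103 of the 148 counts in old PYC pools. No order of SST and PYC cells is therefore read from them.

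**Figure D2:**
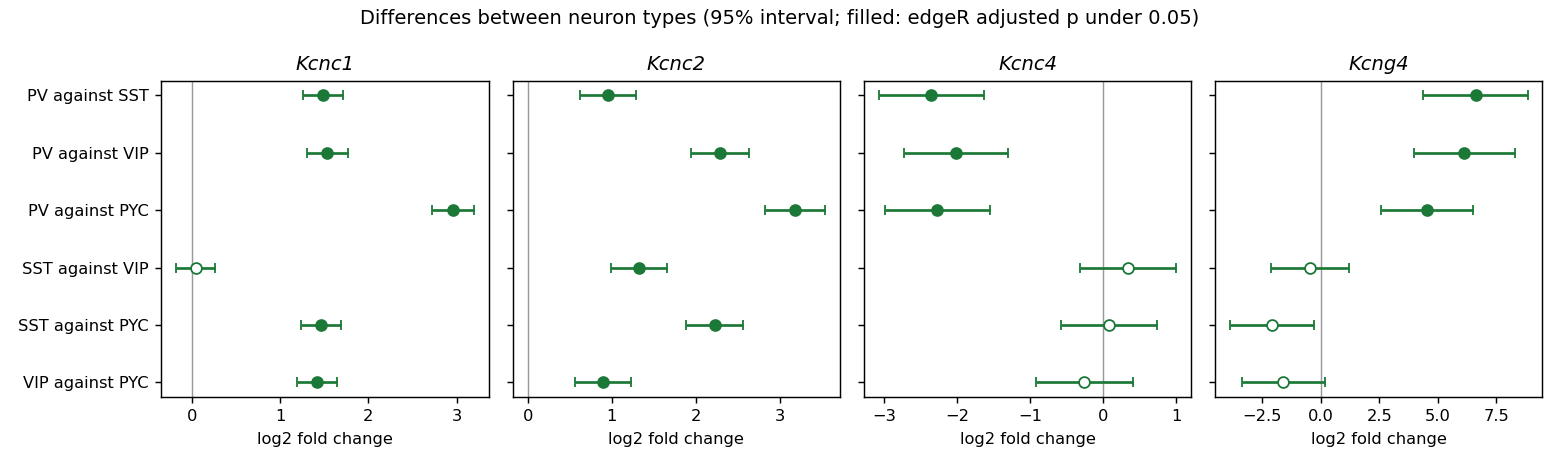
Log2 fold change (horizontal axes) of each gene between each pair of neuron types (rows, the first-named type over the second), with 95% intervals. Filled points have an adjusted p under 0.05. Kcnc2 is called in all 6 pairs and Kcnc1 in 5, and Kcnc4 and Kcng4 are called in the 3 pairs with PV.

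Levels in the other types can also be set against the level in PV pools. Kcnc1 averaged 427 CPM in SST, 410 CPM in VIP and 146 CPM in PYC pools, which was 37.7%, 36.2% and 12.9% of its mean in PV pools. Kcnc2 stood at 55.2%, 21.9% and 11.1%. Syt2 stood at 3.75%, 2.33% and 3.48% and Gad1, a GABA-synthesising enzyme, at 29.7%, 29.8% and 2.36% in the same order of types. Kcng4 stood at 2.43%, 1.79% and 4.58%. The highest single pool had 20.6 CPM in SST and 32.7 CPM in PYC, and the 4 highest VIP pools had 3.88 to 6.18 CPM.

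Levels of different genes can be compared only per length, and so counts were divided by the length of the union of annotated exons, which was 9458 bases for Kcnc1, 7138 for Kcnc2, 3667 for Kcnc4 and 3806 for Kcng4. On this scale PV pools averaged 119.9 CPM per kb of Kcnc1, 83.1 of Kcnc2, 14.7 of Kcng4 and 2.64 of Kcnc4. Of the summed counts per kb of the 3 Kv3 genes described here, Kcnc1 made up 58.5% ± 5.55, Kcnc2 40.2% ± 5.74 and Kcnc4 1.30% ± 1.31 in PV pools (SD, n = 20). The share of Kcnc4 was at most 4.37% in any PV pool, against a mean of 13.7% ± 3.57 (SD, n = 21) in SST, 15.7% ± 8.41 (SD, n = 21) in VIP and 34.7% ± 14.6 (SD, n = 21) in PYC pools. The lowest share was 8.40% among SST, 2.27% among VIP and 5.64% among PYC pools.

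The mixture differed among the pools of the other types. SST pools held 43.8% ± 8.83 Kcnc2 and 42.5% ± 7.25 Kcnc1, with a log2 ratio of Kcnc1 to Kcnc2 of -0.03 ± 0.56 (SD, n = 21). VIP pools leaned to Kcnc1, at 59.3% ± 13.1, with Kcnc2 at 25.1% ± 9.18 and a log2 ratio of 1.30 ± 0.84 (SD, n = 21). In PYC pools Kcnc1 made up 41.0% ± 8.61, Kcnc4 the next largest share and Kcnc2 24.3% ± 10.66 (SD, n = 21). These shares are descriptions of pools, and the length counted for a gene can differ from the isoforms present. The sum of 8 pyramidal markers averaged 1514 CPM in PV, 1889 CPM in SST, 2983 CPM in VIP and 3508 CPM in PYC pools. The part of RNA from other cell types in the shares was not tested.

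**Figure D3:**
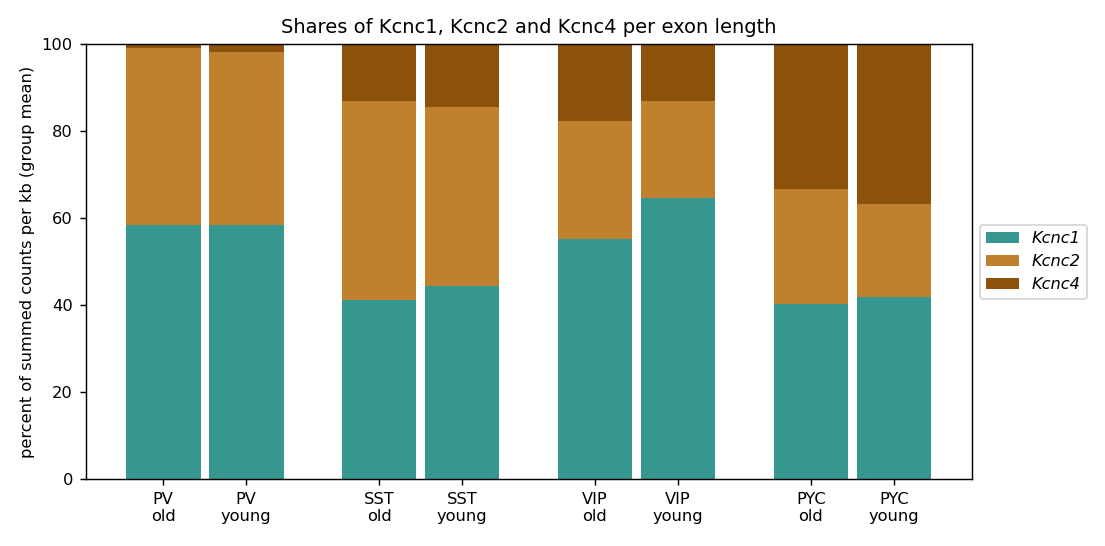
Share of Kcnc1, Kcnc2 and Kcnc4 in their summed counts per kilobase of exon (vertical axis, percent, group means) in each neuron type and age. Kcnc4 is 0.984% in old and 1.78% in young PV pools and 13.0% to 36.6% in the other groups.

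The sequence before the start site is shown for the 3 genes that were higher in PV pools. That of Kcnc4 is not shown, because its RefSeq start, at 107458898, lies inside the gene as GENCODE M21 annotates it. The 250 bases before the start come from RefSeq (GRCm38.p6), on the gene's strand. Capitals mark the GC box GGGCGG, the first letters TGACG of a cyclic AMP response element, and the E-box CANNTG, each searched on both strands, so that CCGCCC is a GC box too. No printed match overlaps another.
Kcnc1: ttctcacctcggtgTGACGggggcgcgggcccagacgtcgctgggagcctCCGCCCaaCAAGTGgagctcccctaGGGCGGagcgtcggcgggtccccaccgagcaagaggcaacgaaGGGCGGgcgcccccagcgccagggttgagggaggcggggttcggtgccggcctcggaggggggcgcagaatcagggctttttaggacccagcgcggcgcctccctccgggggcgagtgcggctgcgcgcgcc
Kcnc2: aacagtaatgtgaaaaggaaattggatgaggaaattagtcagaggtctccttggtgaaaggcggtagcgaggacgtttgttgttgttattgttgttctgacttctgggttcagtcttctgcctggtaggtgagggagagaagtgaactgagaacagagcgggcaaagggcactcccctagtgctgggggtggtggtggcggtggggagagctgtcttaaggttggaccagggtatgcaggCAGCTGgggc
Kcng4: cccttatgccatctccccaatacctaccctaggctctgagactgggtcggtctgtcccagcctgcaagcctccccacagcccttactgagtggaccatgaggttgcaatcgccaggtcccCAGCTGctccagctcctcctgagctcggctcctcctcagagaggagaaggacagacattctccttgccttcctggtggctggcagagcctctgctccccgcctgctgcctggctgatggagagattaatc
The windows are at chr7:46396218-46396467 (plus strand), chr10:112270871-112271120 (plus strand, the one of 4 listed Kcnc2 starts that is also the GENCODE start) and chr8:119635681-119635930 (minus strand). The Kcnc1 window held 30 CpG dinucleotides, more than 94.4% of 27025 promoters, and 3 GC boxes. Kcnc2 and Kcng4 had 5 and 4 CpG and no GC box. A GC box was present in 32.9% of promoters, the TGACG motif in 17.9% and an E-box in 66.0%. Each of the 3 windows held 1 E-box, Kcnc1 held 1 TGACG motif, and none held the TATA box TATAAA, which 13.0% of promoters held.

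Around the members, the wider potassium channel repertoire of PV pools differed gene by gene. Kcnb2, whose product is a Kv2 partner of the Kcng4 protein, was lower in PV pools, by a log2 difference of -1.26 ± 0.23 (edgeR's quasi-likelihood test, adjusted p = 6.05e-06). Of 9 silent subunit genes tested among 10, 3 were higher and 3 were lower, beside 7.24% and 8.84% of all genes. The higher ones were Kcng4, Kcns1 and Kcns3, the last at 2.56 ± 0.48. The lower ones were Kcnv1, Kcns2 at -2.32 ± 0.46 and Kcnf1 at -1.85 ± 0.20. Kcns1 was not called against PYC pools alone, nor Kcns3 against SST pools alone. The median log2 difference of the 9 was -0.47, beside -0.05 over all genes tested. Thus Kcng4 did not share its direction with all silent subunits.

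Of 9 Kv1 channel genes and their beta subunits, all tested, 5 were higher in PV pools and 1 was lower, beside 7.24% and 8.84% of all genes. Their median log2 difference was 1.26, beside -0.05 over all genes. The higher ones were Kcna1 at 1.88 ± 0.14, Kcna2 at 1.34 ± 0.09, Kcnab2 at 1.26 ± 0.09, Kcnab3 at 2.68 ± 0.32 and Kcnab1, and the lower one was Kcna4. Kcna1 and Kcna2 encode low-threshold channels of axons, and the beta subunits are their cytoplasmic partners. Of 14 genes for enzymes, scaffolds and other proteins known to act on Kv3 channels, 10 were tested. Prkca was higher, at 0.49 ± 0.12, and Prkcb (-0.39 ± 0.09) and Ptpra (-0.51 ± 0.15) were lower. In single pairs Prkca was called against SST and PYC pools, Prkcb against PYC pools alone and Ptpra against VIP pools alone. The median log2 difference of the 10 was 0.04, beside -0.05 over all genes, where 7.24% were higher and 8.84% lower. Prkca and Prkcb encode protein kinase C enzymes.

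Of 20 other genes linked to fast-spiking cells, 18 were higher in PV pools and none was lower, beside 7.24% and 8.84% of all genes. Nefm and Cacna1a were not called. The median log2 difference of the 20 was 1.77, beside -0.05 over all genes. Examples were Syt2 at 5.09 ± 0.33, Erbb4, a neuregulin receptor, at 2.54 ± 0.14, and Kcna2. Against SST pools alone 15 of the 20 were higher and 1, Satb1, was lower, beside 3.44% and 5.47% of all genes. Lhx6, Sox6, Kcns3 and Cacna1a were not called in that pair. Between SST and PYC pools 9 of the 20 were higher in SST, Erbb4, Lhx6, Sox6 and Satb1 among them, and 5 were lower. In that pair 9.03% of all genes were called. The list is thus not particular to PV pools. Pvalb is in this list and was used to pick the cells, and Kcna1, Kcna2 and Kcns3 stand in the lists above too. This list and those above were chosen with earlier results of these data known, so their counts are descriptions.

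**Figure D4:**
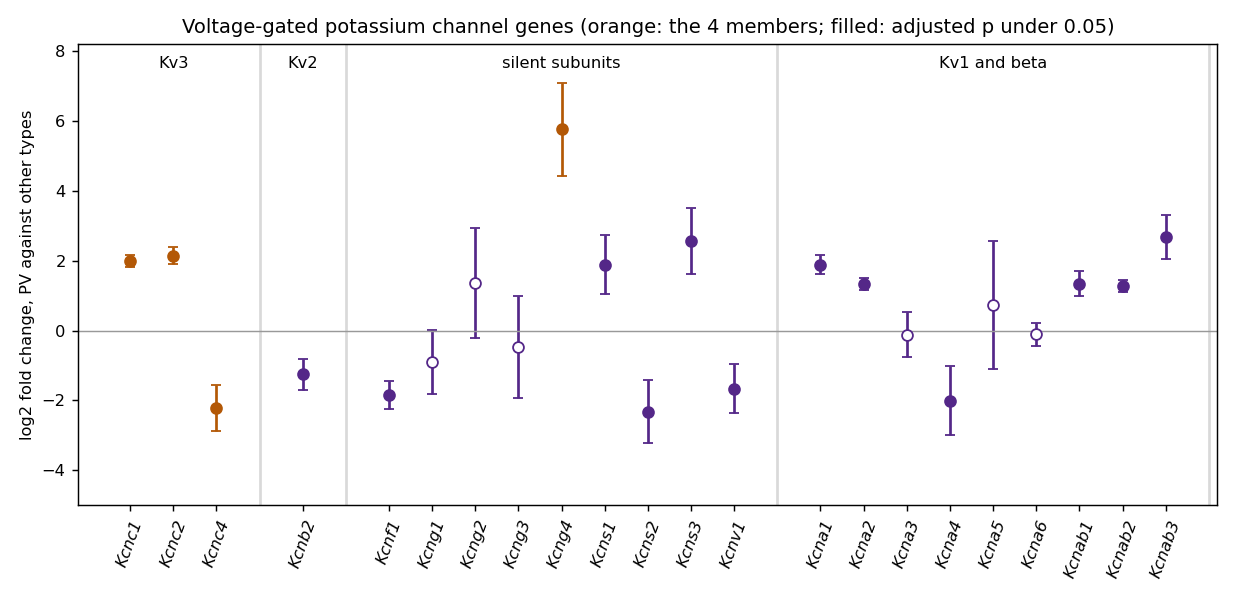
Log2 fold change of PV pools over the mean of the other types (vertical axis) with 95% intervals, for voltage-gated potassium channel genes by family. Orange marks Kcnc1, Kcnc2, Kcnc4 and Kcng4, and filled points have an adjusted p under 0.05. Kcng4 lies at 5.75, Kcnc4 at -2.21 and Kcnb2 at -1.26.

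Age was compared within each type, and no member passed the test in any. No gene at all did among 12564 tested in PV, 12805 in SST, 12337 in VIP and 12508 in PYC pools (0% called in each), with 291, 368, 368 and 364 at an unadjusted p under 0.05 by edgeR's quasi-likelihood test. DESeq2 called 2 genes in PV and 1 in SST pools, and limma-voom 2 in PV, 1 in SST and 2 in PYC pools. Without a filter on low counts edgeR called 6355 genes in PV, 5734 in SST, 7117 in VIP and 6505 in PYC pools. The cause was not tested. Kcnc1, Kcnc2 and Kcnc4 were not among them, nor was Kcng4 in PV pools. The result for Kcng4 in the other types without the filter is not given. In PV pools Kcnc1 averaged 1122 ± 122 CPM in old (SD, n = 12) and 1152 ± 144 CPM in young pools (SD, n = 8), a log2 difference of -0.07 ± 0.09 with a 95% interval of -0.26 to 0.11. Kcnc2 averaged 595 ± 133 and 589 ± 99.0 CPM in old and young PV pools, a log2 difference of -0.02 ± 0.13 with an interval of -0.27 to 0.23. With the titles' F number added as a factor, the differences were -0.20 ± 0.11 for Kcnc1 and -0.11 ± 0.15 for Kcnc2, and in the fit of all 8 groups their standard errors were 0.16 and 0.24, so the intervals depend on the fit.

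Precision was lower for the other members. Kcng4 averaged 56.1 ± 25.7 CPM in old and 56.0 ± 24.0 CPM in young PV pools, with a log2 difference of -0.02 ± 0.39 and an interval of -0.80 to 0.75. Kcnc4 averaged 7.14 ± 8.41 CPM in old and 13.5 ± 11.03 CPM in young PV pools, and its log2 difference of -1.01 ± 0.96 had an interval of -2.88 to 0.86, wide enough to include a change in either direction. In the other types Kcng4 did not pass the filter on low counts and was not tested for age in the main fits within types.

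In SST and PYC pools the differences of Kcnc1, Kcnc2 and Kcnc4 lay between -0.26 and 0.22 on the log2 scale, and every 95% interval included 0. Among these 3 genes the largest difference outside PV pools was that of Kcnc1 in VIP pools, while Kcng4 was not tested there. Old VIP pools ran from 215 CPM, with a median of 339.5 CPM, to 445 CPM, and young ones from 227 CPM, with a median of 479 CPM, to 810 CPM. The ranges overlapped over most of the old range, and the highest young pool was number 3. The log2 difference was -0.43 ± 0.17 with an unadjusted p of 0.0159, and it did not pass edgeR's quasi-likelihood test (adjusted p = 0.9996). Without the 6 libraries with few mitochondrial counts it was -0.30 ± 0.17. The summed level of 8 VIP markers in the same pools was 1999 CPM in old and 2563 CPM in young (exact 2-sided permutation test, p = 0.0338, 0.402 after Benjamini-Hochberg adjustment over 40 such sums), and its part in the Kcnc1 values was not tested. Kcnc4 differed by 0.30 ± 0.47 in VIP pools. Kcnc2 differed by 0.22 ± 0.26 there and by -0.07 ± 0.26 without old pools 9 and 11.

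The age effect of PV pools minus that of the other types was 0.15 ± 0.19 for Kcnc1, -0.23 ± 0.28 for Kcnc2, -0.98 ± 0.57 for Kcnc4 and 2.41 ± 1.49 for Kcng4, and none passed the test of that difference (0.00643% of genes did). For Kcng4 it was 0.42 ± 1.73 without young PYC pool 8. The joint test of an age effect that differs among the 4 types called none of them either (0.0322% of genes).

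**Figure D5:**
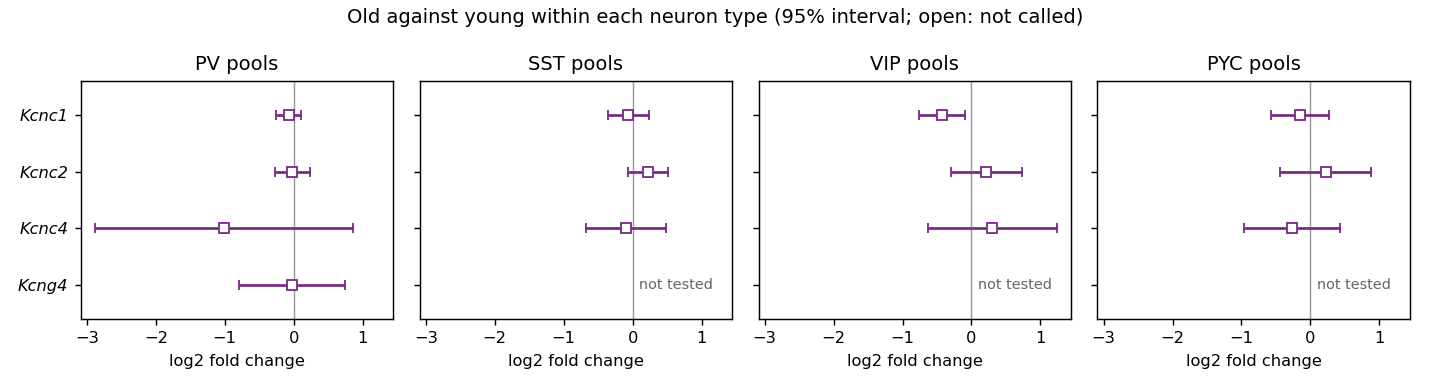
Log2 fold change of old over young pools (horizontal axes) with 95% intervals in each neuron type. No value is called. The interval is narrowest for Kcnc1 in PV pools (-0.26 to 0.11), and Kcng4 was tested in PV pools alone.

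Among PV pools Kcnc1 varied little. Its coefficient of variation was 10.9% in old and 12.5% in young PV pools, where counting error alone would give 1.29% and 1.20%. Over all 20 PV pools it was 11.3%, and 14 of the 125 genes whose PV mean lay within 2-fold of its own had a lower one, with a median of 15.3%. Kcnc2 at 19.9% and Kcng4 at 43.5% lay near the medians of genes of their own level, 18.8% and 49.04%. Over PV pools the log2 level of Kcnc1 had a Pearson correlation of 0.45 with Kcng4 and 0.02 with Kcnc2, and that of Kcnc2 with Kcng4 was -0.19 (20 pools, a description, since the pools share depth and scaling).

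Genes were also ranked by how alike their log2 CPM was to that of each member over all 83 libraries, which share the neuron types. For Kcnc1 the 5 most alike included Gad1, with a Pearson correlation of 0.87, Ank1 (0.84), Zfp385a (0.83) and Rnd2 (0.82). For Kcnc2 they included Rcan2 (0.84), Ank1 (0.82), Kcnc1 (0.82) and Tmem44 (0.81). For Kcng4 they included Kcnab2 (0.80), Ldhb (0.79) and Inpp5j (0.78). Kcnc4 was most like Chrm3 (0.73), Cacna1e (0.70), Syt5 (0.66), Adcy2 (0.65) and Gabra2 (0.65). With the group means removed these correlations were between -0.01 and 0.50, and Spearman's rho kept 3 of the 5 for Kcnc1, 1 for Kcng4 and 0 for Kcnc4.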

How the data were processed

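RNA-seq libraries from 83 pools of laser-captured neurons were prepared with a stranded low-input kit, per the labels' protocols. The authors deposited counts per Ensembl gene with no normalization. HISAT2 and the GRCm38 build are named in the submitters' processing notes. Not given in the sources used here: the counting tool, its annotation and its strand setting. Symbols are from a reference table of gene names (48349 of 48795 IDs matched), and exon lengths and gene positions from GENCODE M21. No libraries held identical values. P-values measure the spread between these libraries, which may be technical, since no label names the mouse of a library. Without molecular identifiers counting limits are lower bounds of the error.

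Age was tested within each type, and types and interactions in a fit of all 8 groups, with edgeR 4.0.16 in R 4.3.3 (quasi-likelihood F-test, robust, TMM, filterByExpr with a minimum count of 10, 2-sided, Benjamini-Hochberg over all genes tested, threshold 0.05). Type contrasts weight both ages equally. The fits were also run on simulated counts of independent libraries, with the outcome not given here. Standard errors come from the F statistic. Correlations use log2 CPM with a prior count of 2. CPM is scaled to the library total, mitochondrial counts included. Promoters are RefSeq's, and coding sequences were aligned with Biopython 1.88.

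Alternatives were RLE size factors, DESeq2 1.42.0, limma-voom (limma 3.58.1), no filter, a filter on 8 groups, adjustment over the more abundant genes alone, the library total or the F number of the titles (unexplained in the labels) as covariates, all 8 groups for age, each age alone, and leaving out libraries. Leaving out young PYC pool 8, young SST pool 8 or old PV pool 9 was chosen after seeing the data. The members and gene lists were chosen with earlier results of these data known, and some genes of the lists are not reported here and are left out of the list counts. The members, up to 4 genes of each list by smallest p and the 5 genes most like each member (passing over Gm numbers, Rik clones and pseudogenes) were to be named. Kcns1, Kcnv1, Kcnab1, Kcna4, Nefm, Cacna1a, Pvalb, Satb1, Lhx6 and Sox6 were named after their values were seen.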

Additional observations from a re-analysis of the deposited data

Results flagged for a closer look

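Kcng4 in young PYC pools had 1 library far from the other 8, young PYC pool 8 at 32.7 CPM. Kcng4 in young SST pools likewise had 1 library far from the others, young SST pool 8 at 20.6 CPM. Such a gap test flags about 1 in 20 groups by chance, and groups in which most libraries have no count are prone to it. Only the young groups, with 8 or 9 libraries, were put to this test, so the old groups of 12 could not be flagged.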

How the results depend on the processing

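No paired analysis was possible because the labels do not say what the F and R numbers of the titles mark, and pool numbers follow accession order. The F number was tried as a factor. The differences of the 4 members between PV pools and the mean of the other types kept their direction and stayed called under every alternative that included them. The adjustment over the more abundant genes alone did not include Kcng4. The log2 values were 1.93 to 2.07 for Kcnc1, 2.03 to 2.27 for Kcnc2, -2.91 to -1.71 for Kcnc4 and 4.58 to 7.64 for Kcng4. Kcnc4 in PV pools had a coefficient of variation of 101%, where counting error alone would give 13.6%, and Kcng4 in the other pools 316%, where it would give 32.8%. Without mitochondrial and ribosomal RNA genes in the total, Kcnc1 averaged 1292 CPM in old and 1326 CPM in young PV pools.

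Counts of genes called moved by over 1.5 times as follows, and the cause was not tested. For age (0 called in each type), no filter gave 6355 in PV, 5734 in SST, 6505 in PYC and 7117 in VIP pools, DESeq2 2 in PV and 1 in SST, limma-voom 2 in PV, 1 in SST and 2 in PYC, and the fit of all groups 1 in PV and 1 in PYC. Against the mean of the other types, PV pools (2501) had 4271 without a filter, 1452 in old and 1200 in young libraries alone. In the same 3 settings the count was 5367, 1433 and 1180 for PV and PYC (2400), 3960, 743 and 529 for PV and SST (1386), 5946, 1246 and 1106 for PV and VIP (2372), 4749, 838 and 546 for SST and PYC (1404), 4250, 277 and 208 for SST and VIP (695) and 4768, 610 and 466 for VIP and PYC (1210). The smaller counts with 1 age alone rest on fewer samples. Limma-voom gave 2182 for PV and SST, 2173 for SST and PYC and 1046 for SST and VIP, and the filter on 8 groups 2097 for PV and SST, 1274 for SST and VIP and 1817 for VIP and PYC. For the age effect of PV minus that of the others (1 called), the count was 0 with RLE, limma-voom, the F number or without the 6 libraries with few mitochondrial counts, 2 with the library total, 98 with DESeq2, 661 without a filter and 3 without young PYC pool 8. For an age effect that differs among types (5), it was 1 with DESeq2, 12 with limma-voom, 7680 without a filter, 0 with the F number or without those 6 libraries, 3 without old VIP pools 9 and 11 and 3 without young PYC pool 8.

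Reversals concerned differences that were not called. For age these were Kcng4 in PV (0.0596) and Kcnc4 in PYC pools (0.0222) with the F number, Kcnc4 in SST pools with the library total (0.0032), and Kcnc2 in VIP pools without pools 9 and 11 (-0.0741). Between types they were Kcng4 with limma-voom for SST and PYC (0.0712) and VIP and PYC (0.99), Kcng4 without young PYC pool 8 for SST and PYC (0.93) and VIP and PYC (1.41), Kcnc4 for VIP and PYC (0.0261) in old libraries, and Kcnc1 (-0.12) and Kcng4 (0.85) for SST and VIP in young ones. Leaving out each library in turn, run for the age effects within types, gave 0 genes called each time, and reversed Kcnc1 in SST (-0.14 to 0.0335), Kcnc2 in PV (-0.0924 to 0.0298), and Kcng4 in PV pools (-0.17 to 0.13).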
